A study of Mus musculus with 4 samples.

Results

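The 9 genes described here encode the enzymes that write, copy and remove methyl groups on cytosine in mouse DNA. They are Dnmt1, Dnmt3a, Dnmt3b, Dnmt3l, Uhrf1, Tet1, Tet2, Tet3 and Tdg. They were found as non-control probes carrying these gene names, or older names that map to them, which gave 16 of the 41174 probes and 9 of the 27597 gene names. The older names were Cxxc6 for Tet1, E130014J05Rik for Tet2, and D230004J03Rik and B430006D22Rik for Tet3.

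Total RNA of mouse embryonic fibroblasts, which are connective tissue cells cultured from embryos, was hybridised to 4 one-colour microarrays. Cells on 2 arrays carried the transduced genes Oct3/4, Sox2, Klf4 and c-Myc, a factor set that reprogrammes fibroblasts towards pluripotency, and were kept for 72 hours in 21% or 5% O2 (day 4 in the sample names). They are called four-factor cells. Cells on the other 2 arrays were untransduced and were kept for 10 days in 21% or 5% O2. The labels name neither the mouse strain, the age of the embryos nor the vector. Each condition was measured on 1 array, so a difference between 2 arrays stands without a replicate check or p-value, and having 4 arrays limits precision throughout. Both four-factor arrays were on 1 slide and both untransduced arrays on another. Transduction, time in culture, slide and scan therefore cannot be told apart in a comparison of cultures, whereas both oxygen levels of a culture shared a slide.

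Methylation of cytosine in CpG pairs is set by the de novo methyltransferases DNMT3A and DNMT3B, which the catalytically inactive DNMT3L assists. It is copied after each round of replication by DNMT1, which UHRF1 recruits to hemimethylated DNA. TET enzymes oxidise methylcytosine in a reaction that uses oxygen and 2-oxoglutarate, and TDG excises the more oxidised forms so that base excision repair can restore cytosine. Reprogramming of fibroblasts to pluripotent cells includes loss of methylation at pluripotency gene promoters.

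Promoter sequences of 4 of the genes are shown first, because Uhrf1, Dnmt1 and Tdg were higher in four-factor cells and differed with oxygen in opposite directions in the 2 cultures, and Tet2 had, with Uhrf1, one of the larger oxygen differences in four-factor cells. The sequences are those of RefSeq on GRCm38.p6, and all 9 genes were in that table, with 16 start sites. They are written from 5′ to 3′ on the strand of the gene. Capitals mark E2F letters (TTTCCCGC, TTTGGCGC, TTTCGCGC or TTTGCCGC) and hypoxia-response core letters (ACGTG or GCGTG), searched on both strands, so that a match on the opposite strand reads for example GCGCGAAA, CACGT or CACGC. Where CACGTG occurs, matches on both strands overlap.
Uhrf1, second of 2 listed starts, 250 bases upstream, plus strand, chr17:56304063-56304312: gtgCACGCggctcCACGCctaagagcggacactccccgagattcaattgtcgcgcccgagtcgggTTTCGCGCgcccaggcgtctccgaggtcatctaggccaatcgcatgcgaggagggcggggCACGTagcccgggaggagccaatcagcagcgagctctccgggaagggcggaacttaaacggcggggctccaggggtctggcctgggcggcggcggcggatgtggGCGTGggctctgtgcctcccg
Tdg, its only listed start, 250 bases upstream, plus strand, chr10:82629588-82629837: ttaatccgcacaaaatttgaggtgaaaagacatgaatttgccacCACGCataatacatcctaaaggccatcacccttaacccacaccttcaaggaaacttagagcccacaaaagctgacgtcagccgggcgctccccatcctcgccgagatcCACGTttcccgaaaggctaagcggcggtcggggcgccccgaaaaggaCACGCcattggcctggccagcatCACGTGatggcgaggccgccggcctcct
Dnmt1, the last of 3 listed starts, 30 bases from -230 to -201, minus strand, chr9:20952824-20952853: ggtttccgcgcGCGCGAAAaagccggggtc
Tet2, its only listed start, 29 bases from -28 to 0 (0 is the start base), minus strand, chr3:133544390-133544418: tcgcatgccagtCACGTccgccccctcgg

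E2F letters were present in windows of 2 of the 9 genes, Dnmt1 and Uhrf1. A window holds 300 bases, 250 before and 50 after the start. Such letters were in a window of 2.61% of all genes (2.27% of all 32851 windows), and 6 of 12 S-phase genes with a window had them. Tdg had no E2F match but 5 matches to the hypoxia-response core, and 6 of the 9 genes had at least 1. That core is common, occurring in a window of 46.7% of all genes and in 43.8% of all windows. Tet2 had 57 CpG pairs in its window, more than 99.85% of windows, against a median of 7 over all windows, and the printed Uhrf1 and Tdg windows had 33 and 26. Each match describes letters only.

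Levels are log2 processed signals relative to the 75th percentile of their array, and each gene is given by its brightest probe unless another is named. The 75th percentile was 1136 and 1148 intensity units on the four-factor arrays (21% and 5% O2) and 810 and 871 on the untransduced arrays. Between 57.1% and 68.5% of probes were well above background, and no spot was saturated. Of the 16 probes, 14 were well above background on all arrays. All 12 fibroblast markers were well above background on every array, but 9 of them were at least 2-fold lower in four-factor cells at each oxygen level (medians of the 12, -1.98 and -2.27). Over all genes 16.6% and 20.0% were, and Vim was higher (0.50 and 0.56). Of the epithelial markers measured on both arrays, 2 of 4 were 2-fold higher in four-factor cells at 21% O2 and 4 of 6 at 5% O2. Over all genes 11.8% and 17.1% were. The other epithelial markers so measured, Krt18 (-0.08 and -0.56) and Cldn7 (-0.87 at both), were lower. These marker differences go with every culture difference given below, and their part in it was not tested. Of the transduced genes, Pou5f1 (Oct3/4) and Myc were higher and Sox2 and Klf4 lower in four-factor cells, and whether their probes read the transduced copies was not analysed here. Macrophage markers differed between cultures: 6 of 12 were well above background on each four-factor array and 11 of 12 on each untransduced array, where their summed log2 level was 4.06 at 21% and 5.19 at 5% O2. In untransduced fibroblasts 10 of 11 measured macrophage markers were at least 2-fold higher at 5% O2 (median 1.41), against 2.56% of all genes. In four-factor cells 0 of 6 were (median -0.31). This shift goes with every oxygen difference in untransduced fibroblasts given below, and its part in them was not tested. Of 11 pluripotency markers on the array four-factor cells had 6 detected at 21% O2 and 8 at 5% O2, and untransduced fibroblasts 3 and 2, whereas the summed level of the list was -0.65 and -0.21 in four-factor cells and 0.38 and 0.58 in untransduced fibroblasts. Most of the latter sum came from Dppa5a, at -0.08 and 0.36 there and -1.86 and -1.89 in four-factor cells. Sall4, the other marker measured on all arrays, was higher in four-factor cells, by 0.44 and 0.81. Dppa4, Esrrb and Lin28a were not detected on any array. Detection reached lower on the four-factor arrays, where the lowest signal well above background was 9.86 and 9.64 (levels of -6.85 and -6.90), than on the untransduced arrays with 26.2 and 24.9 (-4.95 and -5.13), so counts of detected genes are not on the same footing in both cultures. In bulk RNA, fewer cells of a type and less RNA per cell cannot be told apart.

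**Figure D1:**
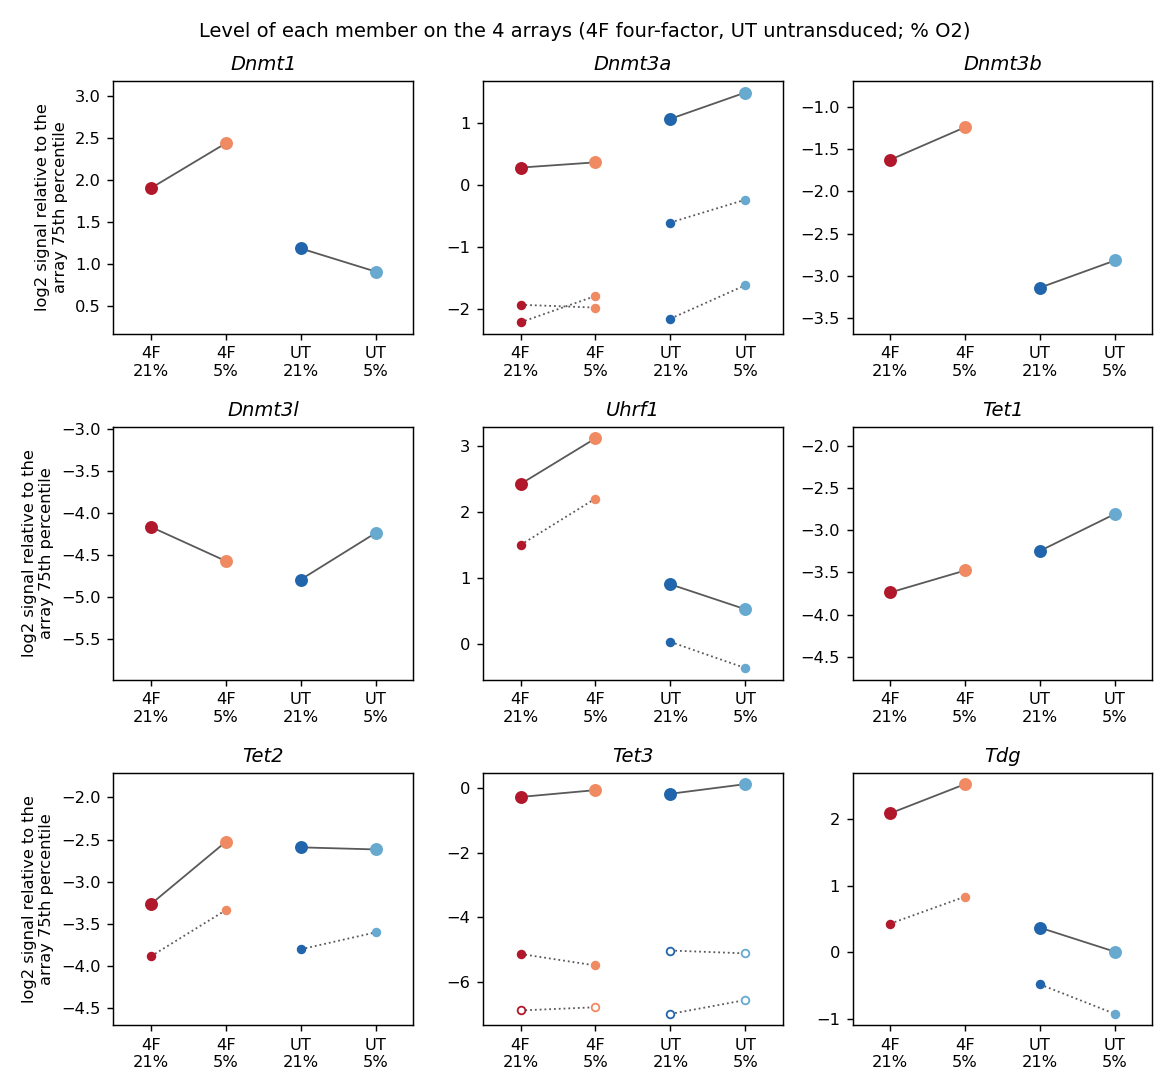
Level of each of the 9 genes on the 4 arrays (4F four-factor cells, UT untransduced fibroblasts, at 21% and 5% O2), in log2 units against the 75th percentile of signal; solid lines join the brightest probe's values, dotted lines the other probes, and open circles are not well above background. Uhrf1, Tdg and Dnmt1 are highest in four-factor cells at 5% O2 and lowest in untransduced fibroblasts at 5% O2, with 3.12 and 0.53 for Uhrf1.

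The maintenance genes were higher in four-factor cells. Uhrf1, whose product reads hemimethylated DNA at the replication fork, had signals of 6104 and 9965 on the four-factor arrays (21% and 5% O2), and of 1518 and 1256 on the untransduced arrays. The log2 levels were 2.43, 3.12, 0.91 and 0.53 in that order, so that four-factor cells were 2.87-fold higher at 21% O2 and 6.02-fold higher at 5% O2. Its second probe, at a neighbouring position (chr17:55956840-55956899), gave differences of 1.47 and 2.57 on the log2 scale, against 1.52 and 2.59 for the brightest (chr17:55956943-55957002 on mm8, the files' build). Dnmt1, the maintenance methyltransferase itself (probe at chr9:20657931-20658299), had signals of 4254, 6219, 1847 and 1640 in the same order. Its levels were 1.90, 2.44, 1.19 and 0.91, giving four-factor cells 1.64-fold higher at 21% O2 and 2.88-fold higher at 5% O2. For both genes the 2 four-factor arrays were above the 2 untransduced arrays, and the share of all genes with that order was not counted.

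Both genes also went opposite ways with oxygen in the 2 cultures. In four-factor cells Uhrf1 was higher at 5% than at 21% O2 by 0.69 and Dnmt1 by 0.53 (log2). In untransduced fibroblasts the oxygen difference was -0.38 for Uhrf1 and -0.28 for Dnmt1. Differences at least as far from 0 were seen for 6.76% of genes in the case of Uhrf1 in four-factor cells and 13.0% in that of Dnmt1. Neither reached 2-fold.

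The S-phase and proliferation list moved the same way on these arrays. Its 16 genes code for replication licensing factors, nucleotide synthesis enzymes and cyclins. In four-factor cells all 16 were higher at 5% O2 (0.12 to 0.75, median 0.49), and in untransduced fibroblasts all 16 were lower (-0.83 to -0.05, median -0.34). Over all genes the medians were -0.01 and -0.04. Cdc6, which loads the replicative helicase, was furthest in four-factor cells at 0.75, and Ccne2, a cyclin of S-phase entry, in untransduced fibroblasts at -0.83. In four-factor against untransduced cells 13 of the 16 were at least 2-fold higher at 21% O2 (median 1.40) and 15 at 5% O2 (median 2.24). Over all genes 11.8% and 17.1% were. The part of proliferation in the Uhrf1 and Dnmt1 differences was not tested.

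The de novo methyltransferases went in opposite directions between cultures. Dnmt3b (chr2:153378788-153378847) had signals of 368.5, 486.7, 91.8 and 123.4 in the same order of arrays. Its levels of -1.62, -1.24, -3.14 and -2.82 put four-factor cells 2.86-fold higher at 21% O2 and 2.99-fold higher at 5% O2. With normexp background correction the log2 difference at 21% O2 fell below 2-fold, from 1.52 to 0.87. With 5% O2 it was higher in both cultures, by 0.39 and 0.32, so Dnmt3b did not share the opposite oxygen differences of Uhrf1 and Dnmt1.

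Dnmt3a was lower in four-factor cells. Its brightest probe (chr12:3906882-3907663) had signals of 1386, 1485, 1706 and 2461 and levels of 0.29, 0.37, 1.07 and 1.499. Four-factor cells were 1.73-fold lower at 21% O2 and 2.19-fold lower at 5% O2. By this probe the levels of the cultures did not overlap, and the share of all genes so separated was not counted. With spike-in scaling the differences were -0.28 and -0.42, below 2-fold at both oxygen levels. Its 3 probes did not give 1 size: the probe at chr12:3912604-3912663 gave -1.33 and -1.74, while that at chr12:3908241-3908300 gave -0.06 and -0.17. Levels of the latter probe overlapped between cultures. Oxygen differences in untransduced fibroblasts were 0.42, 0.54 and 0.37 for the 3 probes, higher at 5% O2 in each, and in four-factor cells they ranged from -0.05 to 0.43.

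Dnmt3l, the germ-cell cofactor of the de novo enzymes (chr10:77466496-77466555), was dim. Its signals were 63.3, 48.3, 29.3 and 46.2, of which 29.3 was close to the lowest detectable signal of its array. The levels of -4.16, -4.57, -4.79 and -4.24 overlapped between cultures. Its differences at 21% and 5% O2, 0.62 and -0.33, differed in sign, and the sign turned with normexp background correction at 21% (-0.08) and with spike-in scaling at 5% (0.37). At signals from 20 to 100, replicate spots of 1 array had a standard deviation of 0.10 to 0.15 log2 units, which covers spotting and scanning but not variation between cultures.

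No TET gene was 2-fold apart between cultures. Tet1 (chr10:62208651-62208710) had signals of 85.2, 103, 85.6 and 125 and levels of -3.74, -3.48, -3.24 and -2.81. It was lower in four-factor cells by -0.49 and -0.67 at 21% and 5% O2, which became 0.01 and 0.04 with spike-in scaling. In both cultures it was higher at 5% O2, by 0.26 (four-factor) and 0.44 (untransduced).

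Tet2 was higher at 5% O2 in four-factor cells by both of its probes. The brightest probe (chr3:133401699-133401758) had signals of 118 and 199 on the four-factor arrays (21% and 5% O2), a 1.67-fold difference, and of 134 and 142 on the untransduced arrays. Its log2 levels were -3.27, -2.53, -2.59 and -2.62, so the four-factor array at 21% O2 was the low one and the other 3 were within 0.09 of each other. The oxygen difference in four-factor cells was 0.74, which 5.64% of genes equalled or passed, and in untransduced fibroblasts it was -0.02. Under normexp, normexp with quantile scaling and the mean of probes it was 0.61, 0.51 and 0.64, below that of Uhrf1 (0.68, 0.71 and 0.70). Between cultures Tet2 differed by -0.67 at 21% and 0.09 at 5% O2. The second probe (chr3:133403500-133403559) gave 0.55 and 0.20.

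Tet3, the TET enzyme known from the zygote, was nearly level. Its brightest probe (chr6:83328427-83328486) had signals of 938, 1097, 716 and 947 and levels of -0.28, -0.07, -0.18 and 0.12, which overlapped between cultures. Four-factor cells differed by -0.10 at 21% and -0.19 at 5% O2, and with spike-in scaling by 0.41 and 0.52. Of its other probes, 1 (chr6:83334395-83334454) was not well above background on any array, and that named B430006D22Rik (chr6:83368407-83368466) had signals of 32.1, 25.3, 24.7 and 24.9, at or near the limit of detection of the untransduced arrays.

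Tdg, the glycosylase that excises the more oxidised forms of methylcytosine and also thymine mispaired with guanine, followed Uhrf1. Its signals (chr10:82080043-82080102) were 4813, 6586, 1047 and 877. The log2 levels of 2.08, 2.52, 0.37 and 0.01 put four-factor cells 3.28-fold higher at 21% O2 and 5.70-fold higher at 5% O2. With oxygen it differed by 0.44 in four-factor cells and by -0.36 without transduction. A second probe with Tdg's name gave culture differences of 0.91 and 1.76 and oxygen differences of 0.41 and -0.44, but the files place it elsewhere (chr10:41741623-41741682), so its target is uncertain. The S-phase genes given above had the sign of Tdg in both oxygen comparisons (16 of 16) and, except E2f1, in both culture comparisons (15 of 16), and their part in its differences was not tested.

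**Figure D2:**
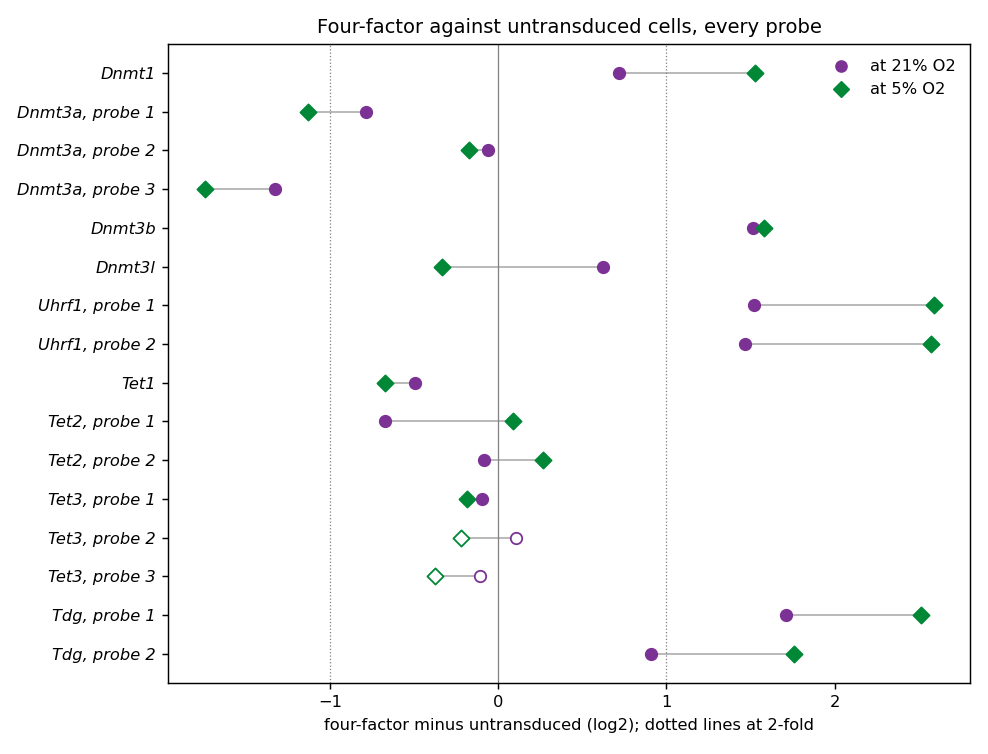
Four-factor minus untransduced log2 difference at 21% O2 (circles) and 5% O2 (diamonds) for each of the 16 probes, with the brightest probe of a gene as probe 1; open symbols mark a dim probe on 1 or both arrays compared, and dotted lines mark 2-fold. Dnmt3b, Uhrf1 and Tdg lie beyond 2-fold at both oxygen levels by their brightest probes (Dnmt3b at 21% O2 not with normexp, 0.87). The brightest Dnmt3a probe is beyond 2-fold on the lower side only at 5% O2 (-1.13, but -0.42 with spike-in scaling), with -0.79 at 21%. The other Dnmt3a probes lie at -0.06 and -0.17, and at -1.33 and -1.74 (21% and 5% O2).

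Counted over the 9 genes, 3 (Dnmt3b, Uhrf1 and Tdg) were at least 2-fold higher in four-factor cells at 21% O2, where 11.8% of all measured genes were, and 0 were 2-fold lower, where 16.6% were. At 5% O2, 4 were 2-fold higher (the same 3 and Dnmt1) against 17.1% of all genes, and Dnmt3a was 2-fold lower against 20.0%. With oxygen, 0 of 9 passed 2-fold in either culture. The background there was 1.25% higher and 1.08% lower in four-factor cells, and 2.56% higher and 1.72% lower in untransduced fibroblasts. The median difference of the 9 was 0.39 (four-factor) and 0.30 (untransduced) with oxygen, and 0.62 and 0.09 between cultures at 21% and 5% O2. Over all genes these medians were -0.01, -0.04, -0.02 and -0.02.

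An additive limma model with a culture and an oxygen term was fitted to the 4 arrays over 18278 genes. The model takes as error how far both cultures disagree about oxygen, with 1 residual degree of freedom. It moderates this error with a variance estimated from all genes, worth 2.82 prior degrees of freedom. This error holds no variation between replicate cultures or slides, so a culture call cannot separate transduction from slide or time in culture. By its culture term (Benjamini-Hochberg adjusted over all genes), 4 of the 9 were higher in four-factor cells, as were 27.3% of all genes, and 1 was lower, as were 22.7%. The estimates were 1.55 for Dnmt3b (SE 0.16, adjusted p = 0.00741), 2.11 for Tdg (SE 0.26, adjusted p = 0.0095), 2.05 for Uhrf1 (SE 0.32, adjusted p = 0.0142), 1.12 for Dnmt1 (SE 0.26, adjusted p = 0.0335) and -0.96 for Dnmt3a (SE 0.18, adjusted p = 0.0215). Tet1 missed the threshold at -0.58 (SE 0.17, adjusted p = 0.0526), and Dnmt3l, Tet2 and Tet3 had adjusted p of 0.701, 0.383 and 0.498. The Dnmt3a call was lost with spike-in scaling (adjusted p = 0.244) and the Dnmt1 call under a looser filter that kept a gene detected on any 1 array (adjusted p = 0.058). Over the 10 alternatives the limma adjusted p ran from 0.000825 to 0.244 for Dnmt3a and from 9.15e-05 to 0.058 for Dnmt1. With spike-in scaling the median culture difference over all probes well above background on all arrays was 0.49 at 21% and 0.71 at 5% O2, so culture differences here are relative to the bulk of probes.

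By the oxygen term, limma called 0 of the 9 and 0 of all genes (0.0% higher and 0.0% lower), with 645 genes higher and 755 lower at an unadjusted p under 0.05. Adjusted p of the 9 lay between 0.713 and 0.989. With normexp correction limma called 73 genes higher and 95 lower, and with spike-in scaling 127 and 98. The 10 hypoxia response genes, used as a reference for the oxygen levels, were all higher at 5% O2 in both cultures, with medians of 1.95 and 0.85. Bnip3, a mitophagy gene, had the largest of these differences in four-factor cells, at 3.09. None of the 9 methylation genes reached the median of that list in either culture.

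**Figure D3:**
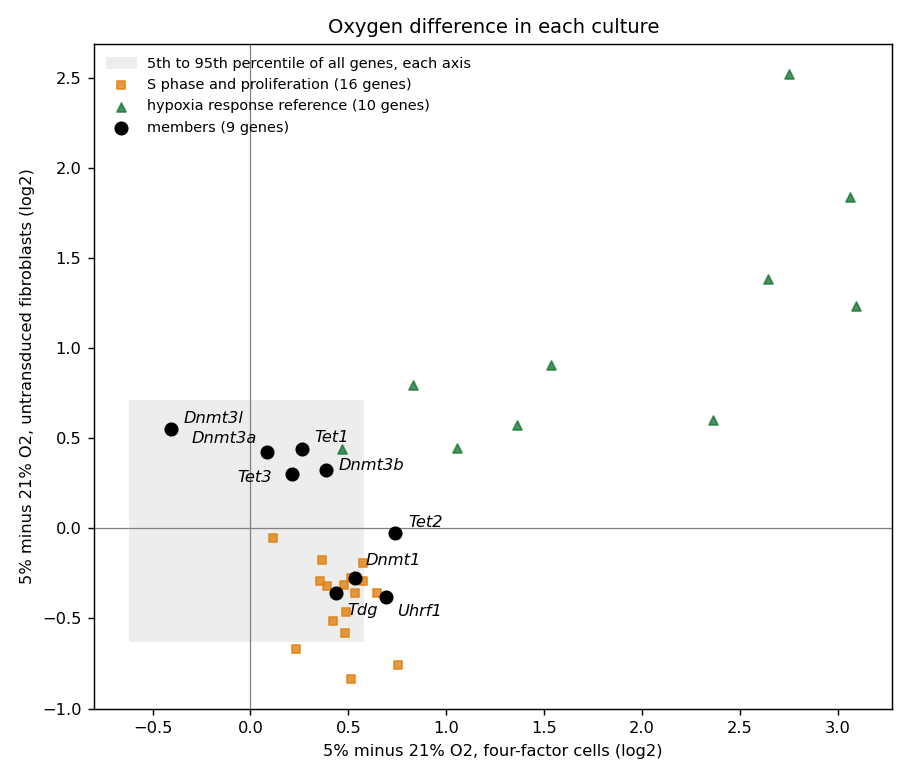
Oxygen difference (5% minus 21% O2, log2) in four-factor cells on the horizontal axis and in untransduced fibroblasts on the vertical axis for the 9 genes (black), 16 S-phase genes (orange squares) and 10 hypoxia response genes (green triangles), with the 5th to 95th percentile of all genes on each axis in grey. Uhrf1, Dnmt1 and Tdg lie among the S-phase genes, right of 0 and below 0, and Dnmt3l alone of the 9 is left of 0.

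The 4-array profiles were then set against those of 102 genes of the pathway and cell type lists, each centred on its own mean, by root mean square distance in log2 units. Uhrf1 was nearest to Mcm3, a subunit of the replicative helicase, at 0.05, and Cdt1, which licenses origins, at 0.09, and only 5 of 14927 genes were as near as Mcm3. Tdg was also nearest to Mcm3, at 0.05, then to the methionine synthase gene Mtr at 0.08, and its distance to Uhrf1 was 0.09. Dnmt1 was nearest to Mcm4 at 0.07 and to the thymidylate synthase gene Tyms at 0.16. The other genes were farther from their nearest list gene or were as near to many more genes. Dnmt3b was nearest to Parp1 (0.16) and Mki67 (0.20), and Dnmt3a to the monocyte gene Cd14 (0.19) and the methyl-CpG reader Mbd2 (0.20). Tet1 was nearest to Apobec3 (0.11) and Mbd2 (0.12), Tet2 to the RNA methyltransferase gene Trdmt1 (0.16) and E2f1 (0.23), and Tet3 to Neil1 (0.07) and Mat2b (0.11). Dnmt3l was nearest to D2hgdh (0.18) and Uhrf2 (0.20). With 4 arrays such distances describe the profiles and carry no test. As near to Dnmt3a as Cd14 were 860 of the 14927 genes. The summed macrophage marker level was, like Dnmt3a, higher in untransduced fibroblasts (4.06 and 5.19 at 21% and 5% O2, against -0.12 and -0.42). By limma's culture term 9 of the 12 markers were lower in four-factor cells and 1, Itgam, was higher. Itgam differed by 2.08 and 2.23 and was dim on both untransduced arrays. Cd68 was higher in four-factor cells at 21% O2 (0.85) and lower at 5% O2 (-1.04). The part of these markers in the Dnmt3a difference was not tested.

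Partner genes of the pathway were counted from lists. Of 11 measured cofactors of methylation, 3 were at least 2-fold higher in four-factor cells at both oxygen levels and 0 lower. These were Cdca7 (2.97 and 3.74 at 21% and 5% O2) and Hells (1.86 and 2.71), which together form a nucleosome remodeller needed for maintenance, and Pcna (1.33 and 2.13), the replication clamp. By limma's culture term those 3 and Trim28 (0.75, adjusted p = 0.0368) were higher and 0 were lower, against 27.3% and 22.7% of all genes. The list's median with oxygen was 0.23 in four-factor and -0.14 in untransduced cells. Uhrf2, a relative of Uhrf1, was close to level between cultures (0.34 and 0.03).

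Among 7 readers of methylated CpG, 1 was 2-fold higher in four-factor cells, Zbtb38 (1.40 and 1.31), and 1 was 2-fold lower, Zbtb4 (-1.52 and -1.84). The shares over all genes were 11.8% and 17.1% higher at 21% and 5% O2, and 16.6% and 20.0% lower. By limma's culture term 2 were higher (Zbtb33 and Zbtb38) and 2 lower (Mbd2 and Zbtb4), against 27.3% and 22.7% of all genes. Oxygen differences of the 7 were small, with medians of -0.10 and 0.01.

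Genes of base excision repair and deamination were counted as 1 list, which is not limited to steps after TDG. Of 15 measured, 5 were at least 2-fold higher in four-factor cells at both oxygen levels: the uracil glycosylase Ung (1.74 and 2.69), Parp1 (1.53 and 2.03), the ligases Lig1 (1.25 and 2.12) and Lig3 (1.16 and 1.34), and the endonuclease Apex1 (1.18 and 1.69). The damage-response gene Gadd45a was lower, by -1.99 and -2.02. The shares over all genes were 11.8% and 17.1% higher at 21% and 5% O2, and 16.6% and 20.0% lower. Limma's culture term called 6 of the list higher, the 5 named above and Mbd4, and Gadd45a lower. Over all genes it called 27.3% higher and 22.7% lower. Ung had the largest oxygen difference of the 15 in four-factor cells (0.84), and 4 of the 15 (Ung, Apex1, Lig1 and Lig3) were higher at 5% O2 in that culture and lower in the other, a pattern that 23.9% of all genes had.

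Methyl groups come from S-adenosylmethionine and the TET reaction uses 2-oxoglutarate. Of 16 genes of these supplies, those at least 2-fold higher in four-factor cells at 21% O2 included the folate enzyme gene Mthfd1 (2.03), Mtr (1.89), Ahcy (1.29), which clears S-adenosylhomocysteine, and Idh3a (1.13), a subunit of an enzyme that makes 2-oxoglutarate. At 5% O2 their differences were 2.61, 2.47, 1.80 and 1.88. Limma's culture term called these 4 higher, with adjusted p from 0.0063 to 0.0164. With oxygen the medians were 0.08 and -0.10, and 0 of the 16 passed 2-fold in either culture.

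**Figure D4:**
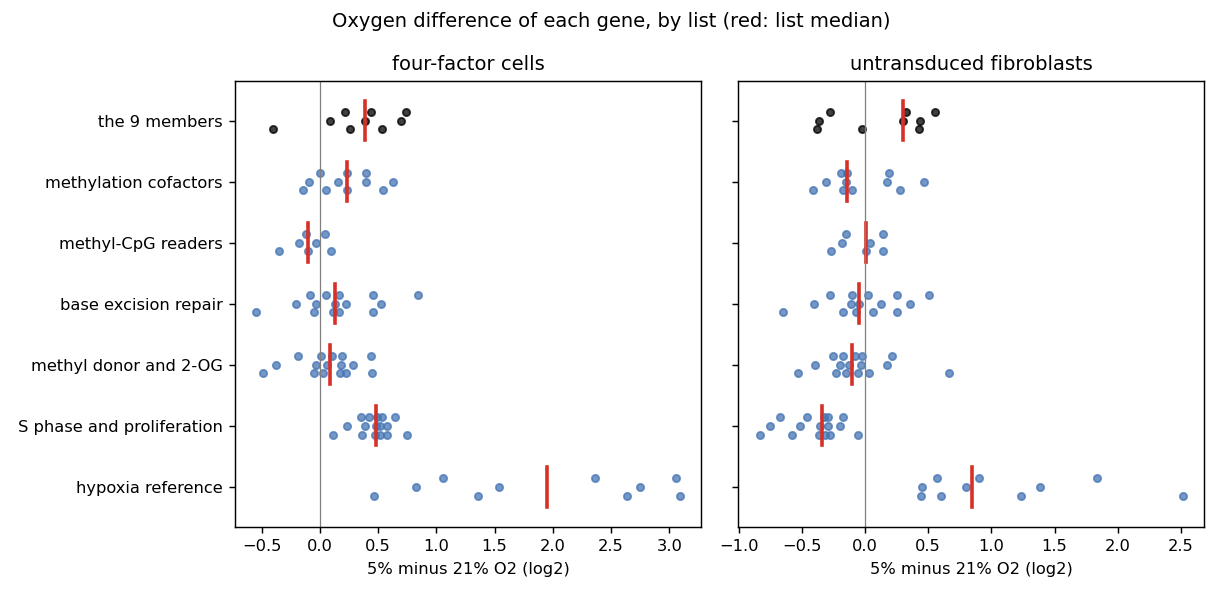
Oxygen difference (5% minus 21% O2, log2) of each measured gene in four-factor cells (left) and untransduced fibroblasts (right), by list, with the list's median as a red bar. The 16 S-phase genes lie right of 0 in four-factor cells and left of 0 in untransduced fibroblasts, while the hypoxia response genes lie right of 0 in both, with medians of 1.95 and 0.85.

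Germline genes whose promoters are methylated in somatic cells were examined as well. Most of the 14 on the array were at or under the limit of detection, which differed between cultures, so numbers detected are not compared. Tdrd1, a piRNA pathway gene, had levels of -3.37 and -2.67 in four-factor cells at 21% and 5% O2, above the limit of every array, and was not well above background in untransduced fibroblasts. Tex19.1 (-5.49 and -5.33) and Tex101 (-6.54 and -6.49) were detected on the four-factor arrays too, but at levels that lie under the limit of the untransduced arrays. In the opposite direction Ddx4, a germ-cell helicase, had levels of 0.07 and -0.05 in untransduced fibroblasts and -5.57 and -6.04 in four-factor cells. Dazl, Mael and Sycp3 were not well above background on any array. DNA methylation was not measured on these arrays, and the part of the 9 genes in these differences was not tested.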

How the data were processed

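Signals were extracted by the authors with Agilent Feature Extraction 9.5.3.1, per the file headers, and the processed signal is a background-subtracted, detrended intensity not normalized between arrays. The authors' deposited value table is on a log2 scale, made by software not named in the labels or headers. Its values matched log2 processed signals relative to each array's 75th percentile, within 0.001 for 99.8% to 99.9% of probes, with column medians of -3.86, -3.87, -3.71 and -3.69 and no centring per probe.

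From the scanner files, spots marked as outliers (65 to 115 per array) and control spots were left out, replicate spots averaged, and log2 signals taken relative to the 75th percentile. Probes were named through accessions, symbols or older names in a RefSeq gene table of GRCm38.p6 (24375, 6301 and 2426 probes, with 8072 keeping the file's name). Whether the mm8 probe positions are exonic was not analysed here. A difference was counted at 2-fold with both arrays well above background. limma 3.58.1 (R 4.3.3) used genes detected on 2 or more arrays, at adjusted p under 0.05, and was tested on simulated data. Values were recomputed with normexp (offset 50), quantile or spike-in scaling, a percentile over detected probes, the mean of a gene's probes, the deposited table, outlier spots kept, and other filters. The 9 genes, the lists and the rule for naming genes (all 9, the genes furthest from 0 per list, the 2 nearest profiles, and those completing counts of 5 or fewer) were chosen with earlier results of these data known. The transduced genes and a few list genes (Dazl, Mael, Sycp3, Uhrf2) were named outside that rule after their values were seen, and some genes the rule covers are not reported here. No array could be left out, since each condition had 1, and whether samples came from separate cultures is not stated.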

Additional observations from a re-analysis of the deposited data

Results flagged for a closer look

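For 5 of the 9 genes the oxygen difference had opposite signs in the 2 cultures. The oxygen difference in four-factor cells minus that in untransduced fibroblasts was 1.07 for Uhrf1, 0.81 for Dnmt1, 0.80 for Tdg and 0.76 for Tet2 on the log2 scale, each higher at 5% O2 in four-factor cells. It was -0.96 for Dnmt3l, which was lower at 5% O2 in four-factor cells and higher in untransduced fibroblasts. With 1 array per condition none of these differences was tested. Opposite signs were common, at 44.6% of 14927 genes measured on all arrays. A difference as large as that of Uhrf1 was found for 3.84% of genes, as that of Dnmt3l for 5.29%, of Dnmt1 for 8.35%, of Tdg for 8.63% and of Tet2 for 9.57%. Tet2 in untransduced fibroblasts lay at -0.02, so its sign there turned under 2 of 8 alternatives. The second Tet2 probe gave 0.20 there and 0.55 in four-factor cells, without opposite signs. The same quantity had a median of 0.88 over the 16 S-phase genes and 0.71 over the 10 hypoxia response genes.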

How the results depend on the processing

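Over 8 recomputations per comparison, the differences of Dnmt1, Dnmt3a, Dnmt3b, Uhrf1 and Tdg kept their sign in all 4 comparisons. With spike-in scaling, 5 of the 9 genes instead of 3 were at least 2-fold apart between cultures at 21% O2, the Dnmt3a call at 5% O2 was lost (-0.42), and limma called 9656 genes higher and 2414 lower by culture and 127 higher and 98 lower by oxygen. Without a filter on dim genes limma called 10707 genes lower by culture. With normexp the Dnmt3b call at 21% O2 was lost (0.87, leaving 2 of 9), and limma called 73 genes higher and 95 lower by oxygen, against 0 and 0. Culture calls for Dnmt3b, Uhrf1 and Tdg held in all 11 settings and those for Dnmt1 and Dnmt3a in 10. Tet1 passed in 2 settings (normexp, adjusted p = 0.0112, and the percentile over detected probes, adjusted p = 0.0424) and Dnmt3l in 1 (spike-in scaling, adjusted p = 0.0252), with limma adjusted p reaching 0.938 and 0.812 in other settings. Signs turned for Tet3 with oxygen in four-factor cells (-0.02 with the mean of its probes) and for Tet2 in untransduced fibroblasts (0.01 and 0.09 with detected probes and with the mean of probes). The cause was not tested. The labels carry no replicate numbers, and the additive fit already takes oxygen within each culture and slide, since a slide term would equal the culture term. Having 1 array per condition limits every value. Low signals limit Dnmt3l, Tet1 and Tet2 as well, and Dnmt3b in untransduced fibroblasts (91.8 and 123.4 at 21% and 5% O2).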
